A study of Mus musculus with 7 samples.

Results

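Etv4, Etv5, Phlda1, Ccnd1, Epha2, Epha4 and Myc, genes transcribed in response to ERK signalling, were followed in mouse tissue with and without the scaffold gene Iqgap1. These 7 genes were named individually. Each was read from a probe set that names no other gene, and where a gene had several, the brightest on average was taken. All 7 were found among the 19937 genes measured that way.

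The study used 7 Affymetrix Mouse Gene 1.0 ST arrays. On day 6 there were 2 arrays of Iqgap1 knockout and 2 of wild type, and on day 0 there were 2 of knockout but 1 of wild type. All mice had a mixed C57BL/6 and 129 background, and the agent listed for every sample was topical 4OHT (4-hydroxytamoxifen, a ligand that switches on tamoxifen-dependent proteins), given for 6 or 0 days. The labels named no inducible transgene, no promoter or Cre line, no ages and no body site, and they called the material only tissue. Nothing in them says that replicates came from different animals. The 2 wild-type arrays of day 6 differed in Xist RNA (10.30 and 3.73, log2), so they were not repeats of 1 sample. For the knockout pairs, the spread between arrays on which the tests below rest may be only technical.

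ERK is the last kinase of the Ras, Raf and MEK cascade, and it enters the nucleus to phosphorylate transcription factors. In human tumours, transcripts of Etv4, Etv5, Phlda1, Ccnd1, Epha2 and Epha4, together with Dusp and Sprouty genes, are used as a readout of ERK pathway activity. Myc is an ERK-responsive gene too, and ERK also acts on the stability of its protein. In epidermis the cascade drives keratinocyte proliferation, and IQGAP1 is a scaffold that binds several of its kinases.

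The RefSeq promoter table (GRCm38.p6) matched 3 of the 7 genes, Etv5, Epha2 and Epha4, with 4 start sites. The 2 promoters below are shown because they hold the letters TGAATG, the core of the sites bound by Cic, a repressor of Etv genes that ERK relieves. Each is the 250 bases before a start site, 5′ to 3′ on the gene's strand. Capitals mark TGAATG or its reverse complement, extended to TGAATGAA where that matched, and the cyclic AMP response element TGACGTCA.
Etv5, second start site, chr16:22438369-22438618, minus strand: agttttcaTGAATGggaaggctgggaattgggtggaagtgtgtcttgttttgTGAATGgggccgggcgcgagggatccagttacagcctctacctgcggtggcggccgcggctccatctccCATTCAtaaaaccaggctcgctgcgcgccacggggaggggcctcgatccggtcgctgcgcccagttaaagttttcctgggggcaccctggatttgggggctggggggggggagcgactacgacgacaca
Epha2, chr4:141300971-141301220, plus strand: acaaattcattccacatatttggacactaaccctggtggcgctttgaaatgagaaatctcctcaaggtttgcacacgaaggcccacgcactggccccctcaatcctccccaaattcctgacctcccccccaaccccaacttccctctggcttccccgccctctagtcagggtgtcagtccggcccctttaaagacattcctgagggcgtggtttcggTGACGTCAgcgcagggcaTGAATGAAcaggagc

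The second Etv5 start site had 3 matches of TGAATG, counting both strands, beginning at -242, -198 and -129 relative to the start. Of 32851 promoters of the same length, 10.9% held at least 1 match and 0.131% held 3 or more. Epha2 had 1 match, at -15, which continued to TGAATGAA (1.08% of promoters), and the TGACGTCA element at -33 (1.55% of promoters). The short core was searched after these sequences had been seen. The searches with CCGGAAGT and CCGGAA (ETS factors), TGANTCA (AP-1), TGAATGGA (Cic) and CACGTG (E-box, bound by Myc) gave no match at these 4 start sites. They matched 2.88%, 12%, 6.75%, 1.01% and 6.02% of all promoters. A match is a description of letters and says nothing of binding in these samples.

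Iqgap1 itself stood at 8.58 and 8.67 in knockout arrays of day 6, against 10.11 and 10.59 in wild type, on the log2 scale of the deposited values. At day 0 it stood at 9.02 and 8.99 in knockout, against 9.94 in the wild-type array. The knockout arrays were lower on both days, as labelled; where the probe set lies relative to the deleted part was not used here. The 9 keratinocyte markers measured, keratins 5 and 14 among them, had list means of 11.28 to 12.16 over the 7 arrays. The median array value, taken over every probe set, ran from 5.61 to 5.79.

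The wild-type day 0 array stood apart. Its mean over 11 hair follicle markers was 10.48, against 5.81 to 6.81 in the other 6 arrays, with Krt71, an inner root sheath keratin, at 12.72 against 5.15 to 7.73. Krt15, also among the 11, did not follow this. It had 10.79 in that array, against 11.33 and 11.23 in knockout at day 0 and 7.13 to 8.26 at day 6. Over 8 cell division markers the mean of the wild-type day 0 array was 8.98. That was equal to the lowest of the day 6 arrays (8.98 to 9.74) and above the knockout arrays of day 0 (6.52 and 6.66). Replicate 1 of wild type on both days carried Xist RNA (10.30 at day 6 and 11.15 at day 0, against 3.55 to 4.03 in the other 5 arrays). Leaving both out removes wild type at day 0, so the day difference is then the one within knockout, and genotype can be compared only at day 6. A fit with a term for these arrays, which takes its size from the wild-type arrays of day 6, is given beside the comparisons that rest on them. Under that term the wild-type day change is that of replicate 1 alone, 1 array against 1.

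Over both genotypes, Etv4, Phlda1 and Ccnd1 rose between day 0 and day 6 and Myc fell. Etv4 had the largest difference of the 7 and rose by 1.98 ± 0.30 on the log2 scale (SE), a 3.95-fold difference; 2.7% of all genes moved further. Phlda1 rose by 1.23 ± 0.22, Ccnd1 by 1.00 ± 0.17, and Myc fell by 0.63 ± 0.12 (log2, SE; 4 arrays of day 6 and 3 of day 0). That is 4 of 7 genes called at a limma adjusted p under 0.05, 3 of them higher and 1 lower. Of all genes tested, 11.5% were called, 5.85% higher and 5.62% lower. The median log2 difference was 0.58 over the 7 genes and 0.06 over all genes. The count of 4 was 1 without knockout day 0 replicate 1, 2 without either knockout array of day 6, and 5 without wild-type day 6 replicate 1. Without both arrays with Xist RNA it was 5, with a rise of 2.38 for Etv4, 0.83 for Phlda1, 0.76 for Ccnd1 and 0.72 for Etv5, and a difference of -0.68 for Myc. In a bulk sample, fewer cells of a type and less RNA per cell cannot be told apart.

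**Figure D1:**
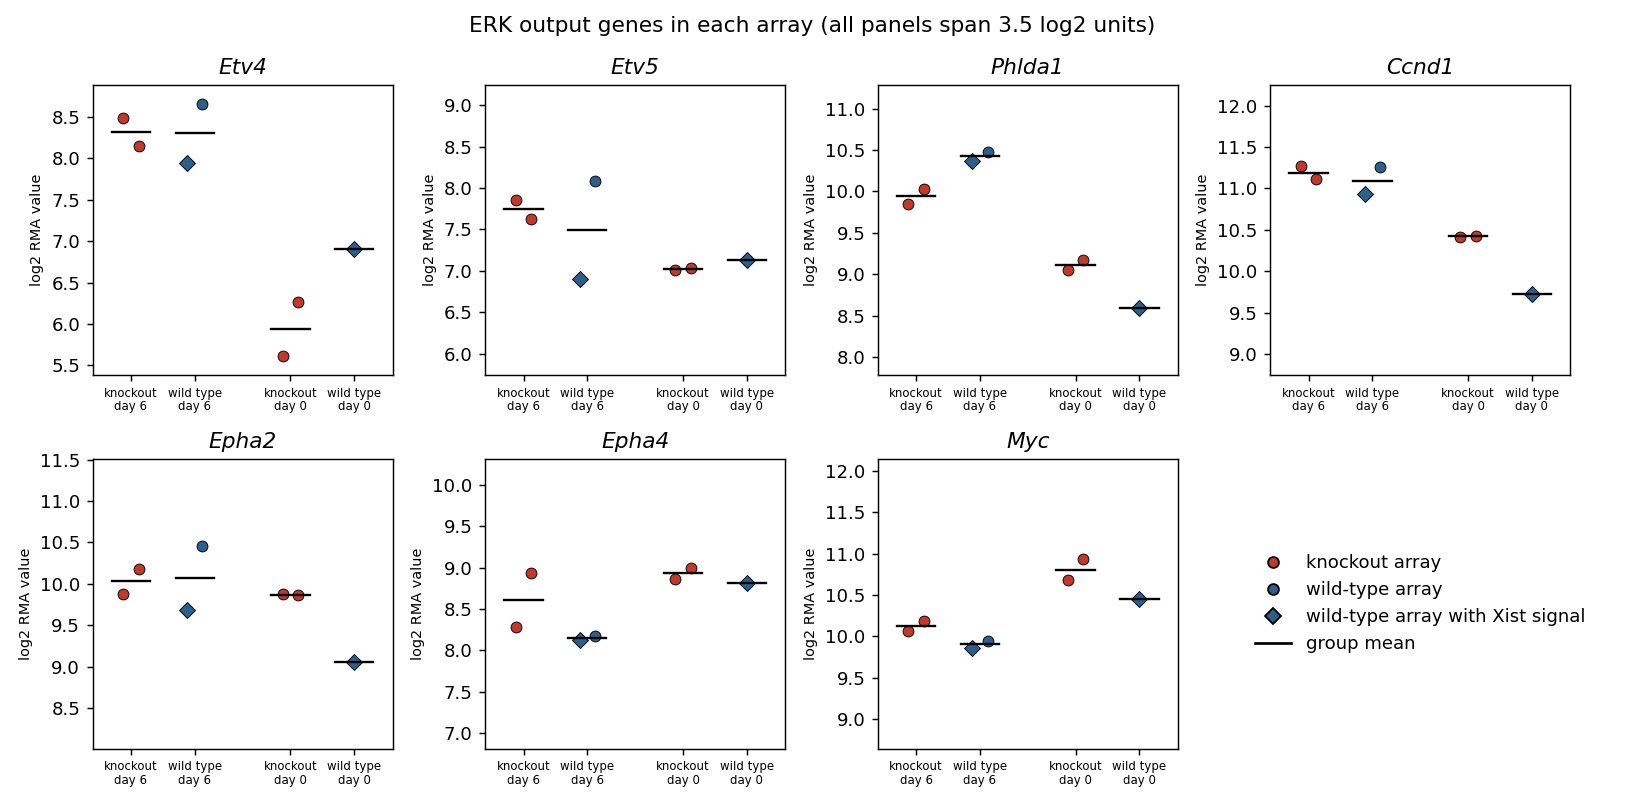
Log2 RMA value of each ERK output gene (vertical axis) in each array, by group (horizontal axis), with a line at the group mean and diamonds for arrays with Xist RNA. Etv4, Phlda1 and Ccnd1 lie higher in all 4 arrays of day 6 than in all 3 of day 0 and Myc lies lower, while Etv5, Epha2 and Epha4 overlap between days.

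Etv4 and Etv5 encode closely related ETS transcription factors that ERK both induces and phosphorylates. Etv4 had log2 values of 8.49 and 8.15 in knockout and 7.94 and 8.66 in wild type at day 6, against 5.61 and 6.27 in knockout and 6.91 in the wild-type array at day 0. All arrays of day 6 were above all arrays of day 0. Within knockout the rise was 2.38 ± 0.32 (SE; limma adjusted p = 0.00382). Within wild type it was 1.39 ± 0.39 (adjusted p = 0.0881), not past the threshold against a single day 0 array that already stood higher than both knockout arrays of that day. The rise over both genotypes passed in all 17 alternative settings, with adjusted p between 0.00332 and 0.0452.

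Etv5 did not pass. It had 7.86 and 7.63 in knockout and 6.90 and 8.09 in wild type at day 6, against 7.01 and 7.03 in knockout and 7.13 in the wild-type array at day 0. The 2 wild-type arrays of day 6 were the lowest and the highest of all 7, and the one with Xist RNA was the low one. The day difference was 0.58 ± 0.28 (log2, SE), with a 95% interval of -0.09 to 1.25 and a limma adjusted p of 0.254. Without both arrays with Xist RNA, which leaves the day change to knockout, it was 0.72 (adjusted p = 0.0226). Without wild-type day 6 replicate 1 it was 0.80 (adjusted p = 0.0230).

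A second probe set of Etv5 had 7.87 and 7.78 in knockout and 6.81 and 8.02 in wild type at day 6, against 6.64 and 7.13 in knockout and 6.35 in the wild-type array at day 0. It repeated the split between the wild-type arrays of day 6. The mean of both probe sets changed by 0.79 (adjusted p = 0.129).

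Phlda1 encodes a small protein with a pleckstrin-homology-like domain that growth factors induce. It had 9.85 and 10.03 in knockout and 10.37 and 10.48 in wild type at day 6, against 9.05 and 9.17 in knockout and 8.59 in the wild-type array at day 0. The days did not overlap, and wild type held both the highest and the lowest values. The rise was 0.83 ± 0.16 in knockout (limma adjusted p = 0.0151) and 1.83 ± 0.20 in wild type (SE; adjusted p = 0.00327). Over both genotypes the adjusted p was 0.0181, and it was 0.0594 without knockout day 0 replicate 1 and 0.0572 without knockout day 6 replicate 2. Of its relatives, Phlda2, a growth-restraining gene of the placenta, rose by 1.78 ± 0.33 (adjusted p = 0.0195), and Phlda3 had a difference of 0.07 ± 0.15. The day difference of Phlda2 was 2.29 in knockout and 1.02 in wild type. Phlda2 was already at 9.73 in the wild-type day 0 array, against 7.57 and 8.43 in knockout that day.

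Ccnd1 encodes cyclin D1, the partner of Cdk4 and Cdk6 that carries growth signals into the cell cycle. It had 11.27 and 11.11 in knockout and 10.93 and 11.26 in wild type at day 6, against 10.42 and 10.43 in knockout and 9.73 in the wild-type array at day 0. Every array of day 6 was higher than every array of day 0. The rise was 0.76 ± 0.18 in knockout (limma adjusted p = 0.0295) and 1.36 ± 0.22 in wild type (SE; adjusted p = 0.0140). Over both genotypes the adjusted p was 0.0157, and it was 0.0552 without knockout day 0 replicate 1 and 0.0519 without knockout day 6 replicate 1. Of 8 cell division markers 3 rose over both genotypes, against 5.85% of all genes, and 8 rose in knockout, against 7.24%. Their median log2 difference was 2.88 in knockout and 0.28 in wild type. The latter rests on the single wild-type day 0 array, whose mean over these markers was already 8.98, against 6.52 and 6.66 in knockout that day. The part of these markers in the Ccnd1 result was not tested.

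Epha2 and Epha4 encode receptor tyrosine kinases of the Eph family, which bind ephrins on neighbouring cells. Epha2 had 9.88 and 10.18 in knockout and 9.68 and 10.46 in wild type at day 6, against 9.88 and 9.86 in knockout and 9.06 in the wild-type array at day 0. The knockout arrays of both days and the wild-type arrays of day 6 overlapped, and the wild-type day 0 array alone was low. The day difference was 0.50 ± 0.26 (log2, SE; 95% interval -0.12 to 1.12; limma adjusted p = 0.283). Leaving out the single wild-type array of day 0 gave 0.16 (adjusted p = 0.751).

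Epha4 had 8.28 and 8.94 in knockout and 8.13 and 8.18 in wild type at day 6, against 8.86 and 9.00 in knockout and 8.82 in the wild-type array at day 0. Of the day 6 arrays, knockout replicate 2 alone lay within the range of day 0. The day difference was -0.46 ± 0.19 (log2, SE), with a 95% interval of -0.90 to -0.01 and a limma adjusted p of 0.182, so it did not pass.

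Myc encodes a transcription factor that drives growth and ribosome production. It had 10.06 and 10.19 in knockout and 9.86 and 9.95 in wild type at day 6, against 10.68 and 10.93 in knockout and 10.45 in the wild-type array at day 0. All arrays of day 6 were lower than all arrays of day 0. Myc fell by 0.68 on the log2 scale in knockout (SE 0.17, limma adjusted p = 0.0349) and differed by -0.54 ± 0.20 in wild type (adjusted p = 0.194). Over both genotypes the adjusted p was 0.0252. Leaving out any 1 of the 4 knockout arrays ended that call, with adjusted p of 0.0800 and 0.0939 without day 0 replicates 1 and 2, and 0.0860 and 0.0888 without day 6 replicates 1 and 2. Myc lay lower in all 4 arrays of day 6 at the same time as Ccnd1 and Etv4 lay higher.

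By non-overlap of the days, 4 of the 7 genes were separated, 3 higher and 1 lower. This held for 21.5% of all genes, 11.9% higher and 9.66% lower. Among the 5 arrays without Xist RNA, 5 of 7 were separated, against 57% of all genes, a count close to the background. When arrays were centred on their medians, the share of higher genes among all calls was 61.8%, against 51.0% with the deposited scaling; 4 of the 7 genes were called under both.

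The change with day was then set out within each genotype, from 1 fit with a shared spread. In knockout 4 of the 7 passed, Etv4, Phlda1 and Ccnd1 higher and Myc lower, against 16.3% of all genes (7.24% higher and 9.07% lower). In wild type Phlda1 and Ccnd1 passed, 2 of 7, both higher, against 7.11% of all genes (3.51% higher and 3.61% lower) and with 1 array at day 0. The median log2 difference of the 7 was 0.72 in knockout and 1.01 in wild type, against 0.10 and 0.00 over all genes. Any 1 of the 4 knockout arrays was decisive in knockout, since without it Etv4 alone passed (1 of 7). Without wild-type day 6 replicate 1, 5 of 7 passed in wild type, a comparison of 1 array with 1 whose error came from the knockout groups. The term for arrays with Xist RNA left the same kind of comparison, wild-type day 6 replicate 1 against the day 0 array. There the difference was 1.78 for Phlda1, 1.20 for Ccnd1, 1.03 for Etv4, 0.62 for Epha2 and -0.23 for Etv5.

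**Figure D2:**
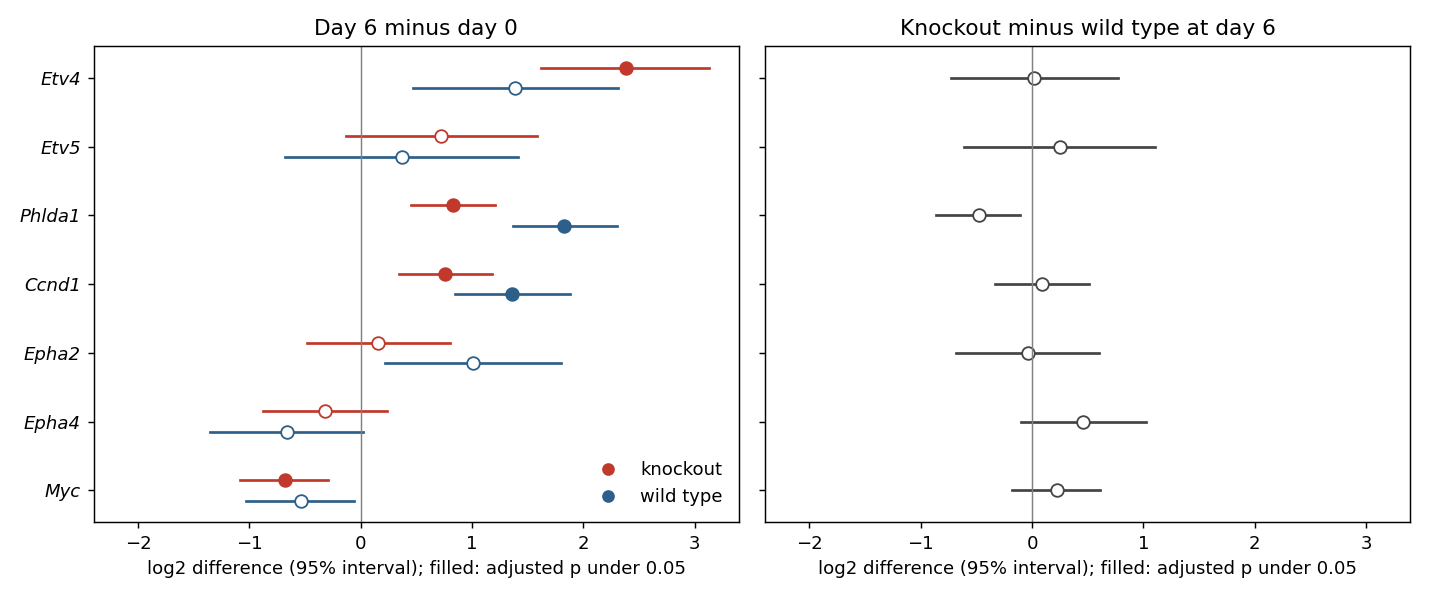
Log2 differences with 95% intervals (horizontal axis) for each ERK output gene (vertical axis): day 6 minus day 0 in knockout (red) and wild type (blue) on the left, and knockout minus wild type at day 6 on the right. Filled points passed a limma adjusted p under 0.05: Etv4, Phlda1, Ccnd1 and Myc in knockout, Phlda1 and Ccnd1 in wild type, and none between genotypes at day 6.

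Whether the day change differed between genotypes was tested itself, and 0 of 7 passed in limma, against 3.1% of all genes (619, with 1.76% higher and 1.35% lower); at an unadjusted p under 0.05 it was 1 of 7, against 17.3%. That gene was Phlda1, whose day change was smaller in knockout (a log2 difference of -1.0 ± 0.25, SE; 95% interval -1.60 to -0.40; adjusted p = 0.0955). The difference was -0.60 ± 0.28 for Ccnd1, -0.85 ± 0.43 for Epha2 and 0.99 ± 0.50 for Etv4 (SE), with adjusted p of 0.339 to 0.381. For Etv5, Epha4 and Myc the intervals also held 0. These values all rest on the wild-type day 0 array, and leaving it out leaves no such test. The term for arrays with Xist RNA left 1 wild-type array on each day. The difference was then -0.95 for Phlda1, 0.95 for Etv5 and 1.35 for Etv4.

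The title of the series speaks of blocking the binding of IQGAP1 to kinases in tumours driven by Ras, and knockout against wild type at day 6 is the treated comparison between genotypes. None of the 7 genes passed in limma (0 of 7), and neither did any of the 19937 genes (0%). That includes Iqgap1 itself, with a log2 difference of -1.73 ± 0.20 (SE; limma adjusted p = 0.503). A missing call in this comparison therefore does not show equal levels. At an unadjusted p under 0.05 there was 1 of 7, against 5.93% of all genes (1182). That was Phlda1, lower in both knockout arrays than in both wild-type arrays, with a log2 difference of -0.48 ± 0.16 (SE; 95% interval -0.86 to -0.11; adjusted p = 0.801, and 0.217 to 1 over 16 alternatives). Epha4 (0.46 ± 0.24) and Myc (0.22 ± 0.17) were higher in both knockout arrays. Arrays of the genotypes did not overlap for these 3 of 7 genes, against 31.6% of all genes.

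For the other 4 genes the genotypes overlapped at day 6. The log2 difference was 0.02 ± 0.32 for Etv4 (95% interval -0.73 to 0.77), and it was -0.05 when arrays were centred on their medians. It was 0.09 ± 0.18 for Ccnd1 (-0.33 to 0.51), -0.04 ± 0.27 for Epha2 (-0.68 to 0.60) and 0.25 ± 0.36 for Etv5 (-0.61 to 1.10). These intervals are wide in both directions for Etv4, Epha2 and Etv5, so a missing call does not show equal levels. Set against the wild-type array without Xist RNA alone, knockout was lower for Etv4 (-0.34), Etv5 (-0.35), Phlda1 (-0.54), Ccnd1 (-0.07) and Epha2 (-0.43), and higher for Epha4 (0.43) and Myc (0.17); with 1 wild-type array left, none of these passed.

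At day 0, 0 of 7 passed between knockout and the single wild-type array, against 14.4% of all genes (2869, with 8.53% higher and 5.86% lower), and 4 of 7 had an unadjusted p under 0.05, against 30.6%. Knockout was higher for Epha2 (0.81 ± 0.33), Ccnd1 (0.69 ± 0.22) and Phlda1 (0.52 ± 0.20) and lower for Etv4 (-0.97 ± 0.39, log2, SE), with adjusted p of 0.0795 to 0.154. With the term for arrays with Xist RNA 0 of 7 passed, and the difference of Epha2 was 0.03 ± 0.28 and that of Ccnd1 0.36 ± 0.24 (SE). Under that term Etv4 differed by -1.69 (adjusted p = 0.151) and Etv5 by -1.30 (adjusted p = 0.0713), against -0.11 without it. Without either wild-type array of day 6, which lowered the shared error and left the differences as they were, Ccnd1 (adjusted p = 0.0368) and Epha2 (adjusted p = 0.0370) passed. Genotype cannot be told apart at day 0 from the Xist signal or from the hair follicle and cell division RNA of that array. Over both days together 0 of 7 passed for genotype, as did 0% of all genes, with 0 of 7 and 18.7% at an unadjusted p under 0.05.

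Related genes of the pathway were counted from lists, and changes are those over both genotypes unless stated, where 11.5% of all genes passed. Within genotype, 16.3% of all genes passed in knockout and 7.11% in wild type, the latter against the single day 0 array. The share was 14.4% between genotypes at day 0 and 3.1% for the difference between day changes. Of 9 Dusp, Sprouty and Spred genes, which feed back on the cascade, Spred3 (2.63 ± 0.33) and Dusp6 (0.72 ± 0.18, log2, SE) rose and 0 fell; the median was 0.31. Within knockout 1 rose and 1 fell (median -0.06), Spred1 falling by 0.85 on the log2 scale (SE 0.16, adjusted p = 0.0144), and within wild type 3 rose and 0 fell (median 0.65). Of 14 other ERK-responsive genes 5 rose and 0 fell, with a median of 0.20: Hmga2, a chromatin architecture factor, by 3.42 ± 0.17, Hbegf by 2.1 ± 0.38, Vegfa by 2.07 ± 0.30, Tgfa by 1.34 ± 0.23 and Ier3 by 1.12 ± 0.22. Ier3 fell outside the naming rule and was added after its value was seen, to complete the count. Within knockout 5 of the 14 rose and 2 fell, with a median of -0.39, and within wild type 6 rose and 0 fell, with a median of 1.41. The difference between these changes had a median of -1.11 and passed for 1 gene, lower in knockout, and at day 0 4 of the 14 were higher in knockout than in the single wild-type array. Of 11 measured cascade genes Map2k1, which encodes MEK1, rose by 0.87 ± 0.16 and Shc1, an adaptor of growth factor receptors, by 0.63 ± 0.15, with 0 falling and a median of 0.09.

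Among 19 other ETS factors and Cic, 3 rose and 0 fell, and the median was 0.08. The epithelial factors Elf3 and Ehf rose by 3.27 ± 0.19 and 1.35 ± 0.18, and Elk3, a partner of serum response factor, by 2.08 ± 0.24 (log2, SE; limma adjusted p between 0.000514 and 0.00667). The days were far apart for Elf3, with 8.84 and 8.98 in knockout and 8.36 and 9.09 in wild type at day 6, against 5.79 and 5.59 in knockout and 5.37 in the wild-type array at day 0. Cic was at 8.77 and 8.75 in knockout, against 7.62 and 8.36 in wild type at day 6, and at 8.57 and 8.60 in knockout, against 7.15 in wild type at day 0. It was lower in all wild-type arrays than in all knockout arrays, lowest in those with Xist RNA, and passed neither for day nor for genotype at day 6. At day 0 it was higher in knockout by 1.44 ± 0.30 (SE; adjusted p = 0.0260) against the single wild-type array, where 5 of the 19 genes were higher and 1 was lower.

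Among 17 other genes of the step from G1 to S phase, 2 rose and 1 fell, with a median of 0.19. Ccnd2, the gene of cyclin D2, moved opposite to Ccnd1: it fell by 1.41 on the log2 scale (SE 0.19, limma adjusted p = 0.00726). It had 9.36 and 9.90 in knockout and 9.42 and 9.06 in wild type at day 6, against 10.83 and 11.19 in knockout and 10.69 in the wild-type array at day 0. Cdk6, a kinase partner of D cyclins, rose by 1.62 ± 0.38 (adjusted p = 0.0399) and Ccne1, the gene of cyclin E1, by 2.03 ± 0.51 (adjusted p = 0.0491). Ccne1 was already at 8.73 in the wild-type day 0 array, against 6.26 and 5.81 in knockout that day.

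Of 11 genes of the Myc, Max and Mxd network, 2 rose and 0 fell, with a median of -0.01. Both encode partners of Max that oppose Myc: Mxd1 rose by 1.31 ± 0.11 (limma adjusted p = 0.00171) and Mxi1 by 1.20 ± 0.13 (SE; adjusted p = 0.00381). Mxd1 had 11.44 and 11.54 in knockout and 11.29 and 11.34 in wild type at day 6, against 10.08 and 10.18 in knockout and 10.06 in the wild-type array at day 0. Of 18 genes that Myc activates, such as Ncl, Npm1 and Odc1, 0 passed in either direction (median 0.14). The 4 with the smallest p were Cad (0.87 ± 0.30), Nop58 (-0.52 ± 0.19), Npm1 (0.43 ± 0.18) and Eif4e (-0.39 ± 0.18).

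Of 11 other Eph receptors, Epha3 fell by 1.43 on the log2 scale (SE 0.20, limma adjusted p = 0.00844) and 0 rose, with a median of 0.14. Ephb3 had a difference of 0.92 ± 0.24 and did not pass (adjusted p = 0.0550). Of 8 ephrins, the ligands of these receptors, Efnb1 rose by 0.65 ± 0.12 (adjusted p = 0.0206) and Efnb2 fell by 0.61 (SE 0.13, adjusted p = 0.0321), with a median of 0.12. Between genotypes at day 6, 0 genes of these lists passed. Within genotype, 16.3% of all genes passed in knockout and 7.11% in wild type, the latter against the single day 0 array with its high cell division RNA. Of the 17 G1 genes 4 rose and 1 fell in knockout, against 1 and 2 in wild type. Of the 11 genes of the Myc network 5 rose and 0 fell in knockout, against 2 and 2 in wild type.

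**Figure D3:**
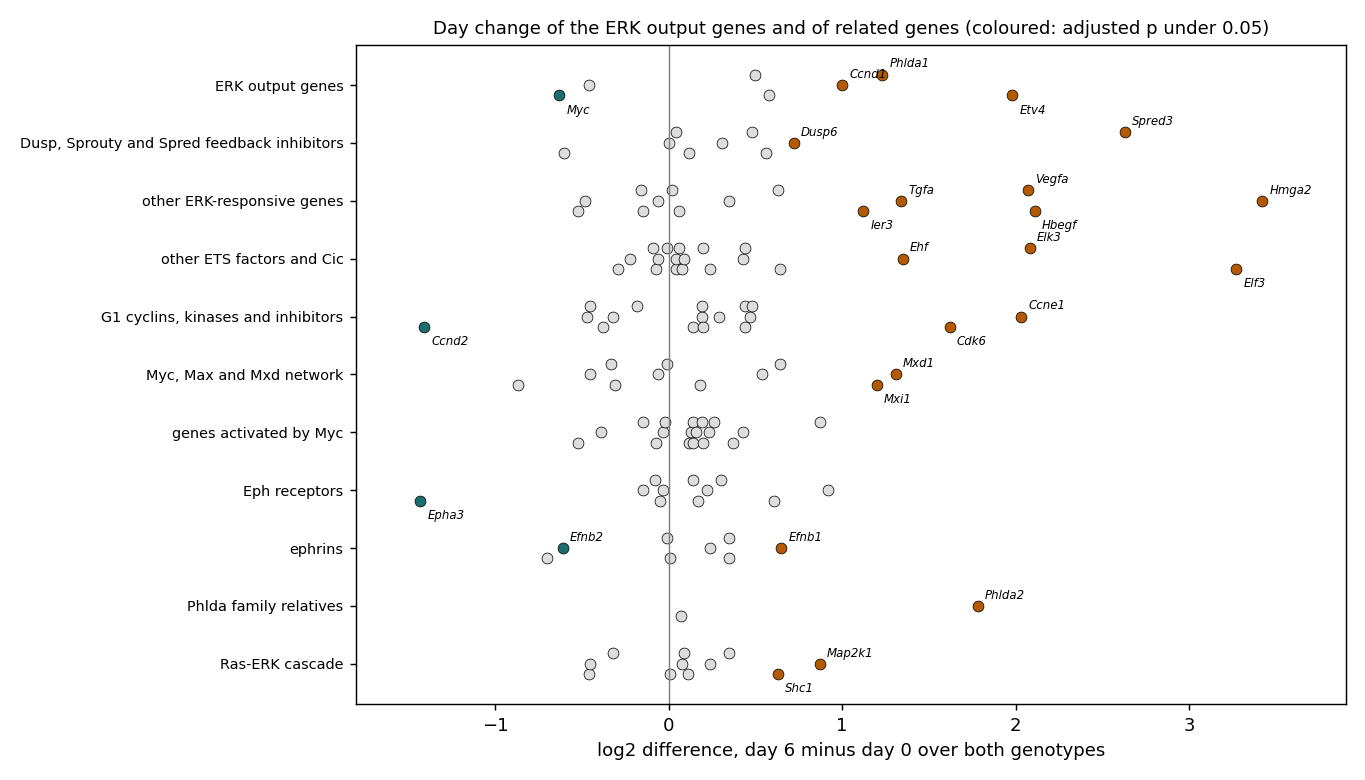
Log2 difference between day 6 and day 0 over both genotypes (horizontal axis) for each gene of the ERK output set and of related lists (vertical axis). Coloured, named points passed a limma adjusted p under 0.05, with Hmga2 (3.42) and Elf3 (3.27) farthest right and Epha3 (-1.43) and Ccnd2 (-1.41) farthest left.

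Markers of other cell types moved between the days too. The counts are those over both genotypes, where 5.85% of all genes passed higher and 5.62% lower. Of 8 adipocyte markers 7 fell, with list means of 6.78 to 7.71 in knockout and 7.20 to 7.68 in wild type at day 6, against 10.47 to 10.83 in knockout and 10.06 in the wild-type array at day 0. Of 8 skeletal muscle markers 7 fell, with means of 8.55 to 9.45 at day 6, against 11.26 to 12.40 at day 0. Of 7 fibroblast markers 3 fell. Of 9 keratinocyte markers 1 rose and 0 fell, with means of 12.01 to 12.16 in knockout and 11.40 to 12.01 in wild type at day 6, against at most 12.12 in knockout and 11.28 in the wild-type array at day 0. Of 6 endothelial markers 1 rose, of 6 macrophage markers 0 passed and of 5 T cell markers 1 fell. T cell markers had means of 4.87 to 5.67, the lowest of these lists, and the part of all these lists in the results above was not tested.

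**Figure D4:**
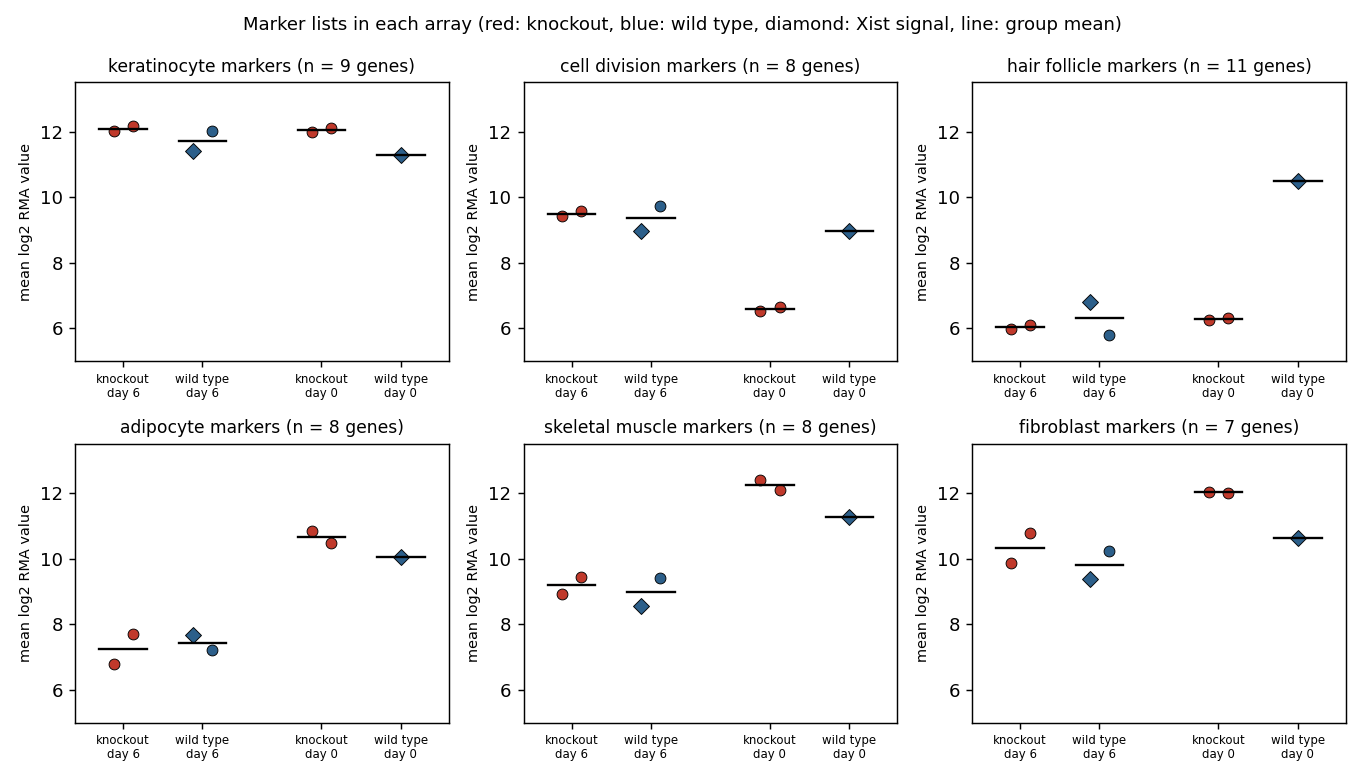
Mean log2 RMA value of 6 marker lists (vertical axis) in each array by group (horizontal axis), with a line at the group mean. Keratinocyte markers lie between 11.28 and 12.16 throughout, and adipocyte and muscle markers are lower in every array of day 6 than of day 0. The hair follicle mean is high in the wild-type day 0 array alone (10.48), though Krt15 on that list is high in all arrays of day 0.

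The genes whose array profiles were most like each of the 7 were taken by the root mean square difference of log2 values, each centred on its own mean, over 7 arrays and 17074 genes. With so many genes and so few arrays, close matches arise for any profile. For Etv4 they were Ddias, Castor1 and Nt5dc2 (0.12, 0.17 and 0.21), and for Phlda1 Dpep2, Fam167a and Plek2 (0.07, 0.12 and 0.13). For Ccnd1 they were Fmnl2, Mid1ip1 and Fam83f (0.09, 0.10 and 0.10), and for Myc Noct, Sgpp1 and Usp47 (0.09 each). For Etv5 they were Hirip3, Entpd6 and Hmgcs1 (0.12, 0.13 and 0.14), for Epha2 Lonp1, Preb and Alas1 (0.04, 0.09 and 0.10), and for Epha4 Osbpl1a, Postn and Vegfc (0.12, 0.13 and 0.13). Among the 7 themselves, the closest pair was Epha4 with Myc (0.20), then Phlda1 with Ccnd1 (0.29) and Ccnd1 with Epha2 (0.31). Etv4 and its relative Etv5 differed by 0.81, and the most unlike pair was Etv4 with Myc (1.43).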

How the data were processed

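The deposited values are log2 expression values per probe set, summarised by the authors by RMA. The submitters' processing notes name R 2.11.1. Values of 2.37 to 13.38 fit a log2 scale. RMA compresses low values, so fold changes of weak genes are understated. Of 34760 probe sets, 21640 named 1 gene, 1321 several, and the rest none; 19937 genes entered the tests, each by its highest-mean probe set. Of these, 19855 matched RefSeq gene identifiers.

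Differences were tested two-sided with limma 3.58.1 in R 4.3.3 (lmFit, eBayes), adjusted by Benjamini-Hochberg for all 19937 genes (threshold 0.05). Day and genotype over all arrays came from an additive fit, and the other 5 comparisons from 1 fit of 4 group means, in which wild type at day 0 borrows its error. SE values use moderated variances. The number of arrays limits the precision. When changes were put into simulated data, small ones within a genotype or on 1 day were mostly missed. In the difference of day changes none were recovered, large ones included. The simulation changed few genes and drew its noise from the additive fit, in which a difference between day changes counts as noise. It therefore cannot show how sensitive that test was in these arrays, where 619 genes passed it. Missing calls in these comparisons do not show equal levels.

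The 7 genes and the 20 lists (207 entries, 195 measured) were chosen with earlier results of these data known. Named from each related list were genes with the smallest p for day or for genotype at day 6, up to 4 and 2 of them, plus Ier3, added after its value was seen. Alternatives changed the replicate block, the arrays with Xist RNA, moderation, scaling, filter, probe sets and single arrays. Same-numbered arrays were checked for shared deviations and were not treated as pairs.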

Additional observations from a re-analysis of the deposited data

Results flagged for a closer look

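Some named genes had opposite day changes in the 2 genotypes, or a difference between genotypes in the day change (knockout minus wild type, log2) that passed limma's test. All of these rest on the single wild-type day 0 array, so a pass here is not secure. On simulated data this test recovered none of the changes put in and the calls it made were false. Because of its settings, given above, that simulation does not show how many of the passes here are false. None of the 7 ERK output genes was among these named genes. The difference passed for Msx2 (4.55, adjusted p = 0.00111), Krt71 (6.11, adjusted p = 0.0361) and Krt27 (5.69, adjusted p = 0.0426), which are hair follicle markers. It passed for Mycl (2.90, adjusted p = 0.00513), Ccne1 (2.57, adjusted p = 0.0190), Cdk1 (2.93, adjusted p = 0.0150) and Aurkb (2.82, adjusted p = 0.0155), and for Ksr1, a scaffold of the cascade, in the other direction (-1.70, adjusted p = 0.0275). In 4 further genes every knockout array moved one way and every wild-type array the other, without passing: Iqgap1 (-0.78, adjusted p = 0.261), Plaur (-2.23, adjusted p = 0.0612), Cdh5 (-1.34, adjusted p = 0.156) and Braf (1.56, adjusted p = 0.125). Plaur, an ERK-responsive receptor of urokinase, had 7.56 and 8.25 in knockout arrays of day 6, against 8.94 and 8.39 in wild type. At day 0 it had 8.58 and 8.97 in knockout, against 7.31 in wild type.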

How the results depend on the processing

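Of 637 recomputed log2 differences of the 7 genes, 579 kept their direction and side of the threshold. Of the rest, 23 lost and 14 gained a call, and 21 changed sign. No called difference changed sign. These are not 637 separate checks. Leaving out a knockout array cannot move a wild-type day change, and the term for arrays with Xist RNA repeats the omission of a single array in several comparisons. The replicate block left 4, 4 and 2 of 7 genes called for day over both genotypes, in knockout and in wild type, and 0 for genotype and for the difference in day change; same-numbered arrays had deviations correlated at 0.04 to 0.23, and the labels do not pair them. Leaving out 1 array gave 1 to 5 called genes for day over both genotypes, 1 to 5 in knockout, 2 to 5 in wild type and 0 to 2 for genotype at day 0. Over all probe sets, with more features adjusted over, 2 were called in knockout. Calls over all genes ranged from 727 to 4027 for day over both genotypes (2286 as reported), 1381 to 4027 in knockout (3251), 1040 to 2209 in wild type (1418), 682 to 4328 for genotype at day 0 (2869), 143 to 1038 for the difference in day change (619), 0 to 43 for genotype at day 6 (0) and 0 to 836 for genotype over both days (0). Centring arrays on their medians moved the median of all genes from 0.10 to 0.20 in knockout and from -0.09 to -0.20 for genotype at day 0.

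Sign changes came in uncalled differences. For knockout against wild type at day 6, Etv4 was -0.34 and Etv5 -0.35 and Ccnd1 -0.07 without the arrays with Xist RNA or with a term for them, and Etv4 was -0.05 with either rescaling. Leaving out 1 array gave -0.34 to 0.38 for Etv4, -0.35 to 0.84 for Etv5, -0.07 to 0.26 for Ccnd1 and -0.43 to 0.35 for Epha2 in that comparison. It gave -0.23 to 0.96 for the day change of Etv5 in wild type, which was -0.23 with a term for those arrays, -0.24 to 0.95 for its difference between genotypes, and -0.65 to 0.02 for the day change of Epha4 in knockout. At day 0, Etv5 was 0.22 with the mean of its probe sets, and Epha4 was -0.03 with the replicate block and -0.01 after quantile normalization. The cause was not tested. No day change in wild type, genotype at day 0 or difference in day change could be fitted without the wild-type day 0 array or without both arrays with Xist RNA.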
